A study of Mus musculus with 24 samples.

Results

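The 6 genes described here encode the subunits of the negative elongation factor NELF (Nelfa, Nelfb, Nelfcd and Nelfe) and of the DRB sensitivity-inducing factor DSIF (Supt5 and Supt4a). They were chosen by name, and their data are every region of the authors' 6 peak lists that overlapped a fixed window around each gene on mouse build mm10, whatever its strength. The windows held 182 of the 1811308 regions in the lists. The 6 genes were set against 21887 protein-coding genes of the RefSeq annotation (GRCm38.p6, the same build). NELF and DSIF bind RNA polymerase II shortly after it initiates and hold it paused downstream of the start site. When the kinase P-TEFb phosphorylates both factors, NELF leaves and DSIF travels on with the elongating polymerase, so NELF is known mainly from gene starts and SPT5 also from gene bodies. Embryonic stem cells pause polymerase at many genes, and the genes of the pausing factors are themselves transcribed by RNA polymerase II.

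The series used chromatin immunoprecipitation with sequencing (ChIP-seq), in which DNA bound by a protein is pulled down with an antibody and counted along the genome. E14 mouse embryonic stem cells were grown in serum with LIF, and every sample carried the genotype labelled Nelfb deg, in which NELFB bears an HA tag and can be degraded by the compound dTAG-13. Peak lists of 6 libraries treated as Control were used: 2 with an antibody to the HA tag (NELFB:HA), 2 with an antibody to NELFE and 2 with an antibody to DSIF (SPT5). The other 18 of the 24 samples, among them those given 500 nM dTAG-13 for 30 min, are not analysed here. The labels do not say whether the 2 libraries of an antibody came from separate cultures, so each test measures only the spread between these libraries. All cells carried the modified Nelfb allele, so no list shows the gene in its unmodified state. The lists hold binding and no RNA, and the labelled cell type was not checked against its markers.

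The libraries held between 27324697 and 62312558 filtered tags, and the lists between 137102 and 462153 regions. Tags were 50 bp long in the NELFB:HA and NELFE libraries and 100 and 101 bp in both SPT5 libraries, which also shared 1 input. Per the file headers, the fragment length used in calling was 227 bp in the NELF libraries and 206 bp in both SPT5 libraries. For every comparison with SPT5, antibody therefore cannot be told apart from tag length, fragment length and input. Each NELF library had an input of its own, so NELFB:HA and NELFE also differed in input. The headers name no sequencing batch. The 2 lists of each antibody shared 0 regions with identical coordinates and were counted as separate samples. Pileup, fold enrichment over input and q-value are the authors' own values per region and serve here to describe and rank regions within a list. Pileup, fold and −log10 q are means over a region, so they depend on how far a call extends.

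The start regions of the members are the sequences that the peaks sat on. RefSeq promoters (GRCm38.p6, 250 bases before to 50 after the start, 5′ to 3′ on the gene's strand) were found for 4 of the 6 members and not for Nelfcd and Nelfe. Nelfa lies at chr5:33936222-33936521 on the minus strand, Nelfb at chr2:25211440-25211739 on the minus strand, Supt5 at chr7:28338670-28338969 on the minus strand and Supt4a at chr11:87737301-87737600 on the plus strand. They are shown because the stretch that all 6 libraries called held 300 of 300 bases of the Nelfa, Supt5 and Supt4a promoters and 192 of 300 bases of the Nelfb promoter. Capitals mark matches on either strand to the motifs searched, as spelled out after the sequences.
Nelfa: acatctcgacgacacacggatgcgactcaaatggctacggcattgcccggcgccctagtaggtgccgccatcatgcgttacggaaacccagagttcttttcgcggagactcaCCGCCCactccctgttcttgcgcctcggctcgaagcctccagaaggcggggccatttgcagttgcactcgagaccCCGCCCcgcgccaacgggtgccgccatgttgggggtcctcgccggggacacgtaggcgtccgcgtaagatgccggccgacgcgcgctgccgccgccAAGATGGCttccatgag
Nelfb: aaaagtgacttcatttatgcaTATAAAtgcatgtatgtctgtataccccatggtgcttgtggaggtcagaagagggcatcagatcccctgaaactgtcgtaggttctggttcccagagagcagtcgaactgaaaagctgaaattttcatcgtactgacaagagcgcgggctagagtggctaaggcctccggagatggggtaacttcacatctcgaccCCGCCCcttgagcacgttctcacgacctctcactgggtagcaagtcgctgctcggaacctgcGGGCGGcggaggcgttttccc
Supt5: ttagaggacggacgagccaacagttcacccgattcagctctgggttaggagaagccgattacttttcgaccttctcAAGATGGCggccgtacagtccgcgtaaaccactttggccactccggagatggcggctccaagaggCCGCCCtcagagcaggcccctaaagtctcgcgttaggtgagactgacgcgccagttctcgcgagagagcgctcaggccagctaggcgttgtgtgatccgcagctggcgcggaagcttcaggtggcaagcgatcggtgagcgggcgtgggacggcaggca
Supt4a: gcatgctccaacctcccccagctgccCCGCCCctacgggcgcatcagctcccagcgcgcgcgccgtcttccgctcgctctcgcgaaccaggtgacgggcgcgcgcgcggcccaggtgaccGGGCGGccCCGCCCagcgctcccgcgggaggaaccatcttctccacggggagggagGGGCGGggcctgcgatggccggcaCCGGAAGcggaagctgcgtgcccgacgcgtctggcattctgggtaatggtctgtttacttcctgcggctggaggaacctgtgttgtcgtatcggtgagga

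The Nelfa, Supt5 and Supt4a promoters were rich in G and C, and that of Nelfb was near the middle of all promoters. G and C made up 65.3% of the Nelfa promoter, 61.3% of Supt5 and 71.0% of Supt4a, against 53.0% for Nelfb and a median of 52.7% over 27025 promoters of the same length. The CpG count was 36 for Nelfa, 28 for Supt5, 37 for Supt4a and 16 for Nelfb, against a median of 7. The GC box GGGCGG was found in 4 of 4, against 35.9% of all promoters. The YY1-type motif AAGATGGC was found in 2 of 4, Nelfa and Supt5, against 2.88%. It lay 33 to 40 bases downstream of the Nelfa start and 174 to 167 bases upstream of the Supt5 start. The ETS core CCGGAAG was found in Supt4a alone (9.12% of all promoters). TATAAA was found in Nelfb alone (14.2%), 229 to 224 bases upstream of the start. CCAAT (37.9%), the E-box CACGTG (7.24%) and the palindromic NRF1-type motif (0.977%) were in 0 of the 4 windows. Overlaps between motifs were allowed. These matches describe letters in a window and do not show a bound factor.

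All 6 members carried a strong region, defined as a deposited q-value of 0.01 or less, in all 6 libraries, and in each case such a region lay at the gene's own start (within 500 bp of it). Among all genes, 32.8% had a strong region within the gene and 4 kb either side in all 6 libraries. At the start itself 28.7% of the 17494 genes with an annotated start had one. Strong regions were few and placed at starts: of the 182 regions in the windows, 43 were strong, and 36 of these were the member starts. A further 6 lay at the start of Timm50, which encodes a subunit of the mitochondrial protein import machinery and lies beside Supt5, and 1 lay downstream of Supt4a. The other regions were weak, with a median fold between 1.65 and 1.85 per library and no fold above 2.27. At a stricter q-value of 1e-05 or less, 3 of the 6 members (Nelfa, Nelfb and Supt5) kept a region in every library, as did 18.3% of all genes. This threshold depends on call length, since −log10 q is a mean over the region. Nelfcd missed it only in its longest calls, of 9149 bp in the second NELFB:HA library (−log10 q 4.54) and 2822 bp in the first SPT5 library (4.90).

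**Figure D1:**
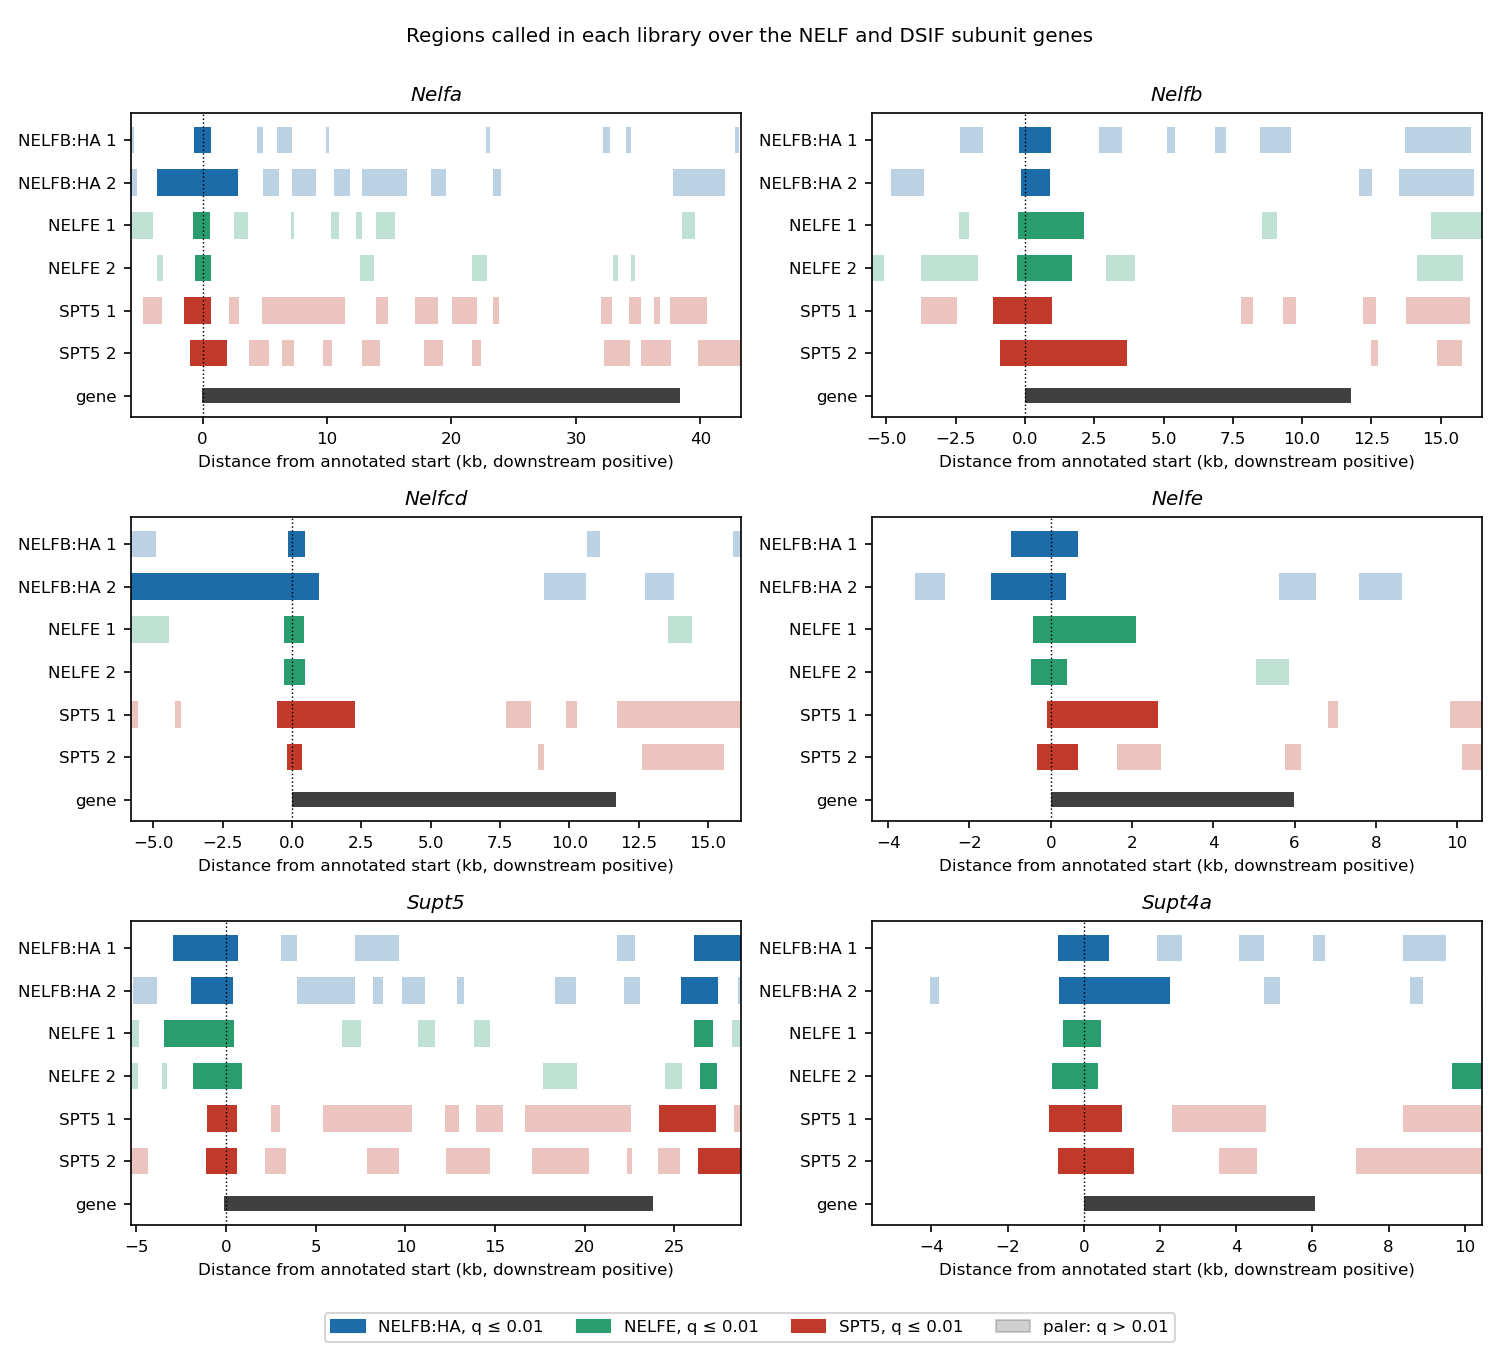
Regions called in each of the 6 libraries over the 6 genes, by distance in kb from the annotated start with downstream positive. Full colour marks regions with a q-value of 0.01 or less, pale colour weaker ones, and the dark bar the annotated gene. Strong regions sit at the dotted start line in every row, with a further one beyond the 3′ end of Supt5 in every row and one beyond Supt4a in the second NELFE row.

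Nelfb encodes the subunit that was tagged, and is annotated at chr2:25199712-25211489 on the minus strand. Its start region was 1143 and 1052 bp long in both NELFB:HA libraries, 2397 and 1964 bp in both NELFE libraries and 2132 and 4559 bp in both SPT5 libraries. The NELFB:HA regions were thus the shortest, and did not overlap in length with those of either other antibody. Fold enrichment was 5.34 and 4.56 with NELFB:HA, 5.74 and 7.52 with NELFE and 3.47 and 3.43 with SPT5. By pileup the region ranked 1590 and 1185 in the NELFB:HA lists, 2573 and 1539 in the NELFE lists and 2347 and 2311 in the SPT5 lists. The added length of the NELFE calls lay inside the gene: regions reached 932 and 909 bp downstream of the start for NELFB:HA, 2144 and 1681 bp with NELFE, and 973 and 3665 bp with SPT5. Upstream, the SPT5 regions extended 1158 and 893 bp, as far as the neighbouring gene Stpg3, and the 4 NELF regions 142 to 282 bp. The second SPT5 region ran from chr2:25207824 to 25212382 and also covered the small nuclear RNA gene Gm22572 inside Nelfb. The window also held the start of Tor4a, a torsin-family gene, where a region was called in all 6 lists with no fold above 2.15 and no q-value as low as 0.01. Fam166a also overlapped the window.

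Nelfa encodes the NELF subunit that contacts RNA polymerase II, and is the longest of the 6 genes at 38386 bp (chr5:33897916-33936301, minus strand). Its start region had the highest folds of the 6 members in 3 of the 4 NELF libraries: 10.4 in the first NELFB:HA library, and 7.93 and 12.8 in both NELFE libraries. In the second NELFB:HA library the fold was 4.19, and in both SPT5 libraries 5.61 and 4.67. The region was 1403 and 6500 bp long for NELFB:HA, 1383 and 1211 bp with NELFE and 2146 and 2949 bp with SPT5. The second NELFB:HA library thus stood apart from the first, with a call that reached 3672 bp upstream and 2827 bp downstream of the start, where the first reached 693 and 709 bp. The pileup rank moved with it, at 590 and 2701 in the NELFB:HA lists, against 833 and 479 in the NELFE lists and 502 and 1117 in the SPT5 lists. The stretch called in all 6 libraries was chr5:33935640-33936835, 1196 bp long. Nelfa overlaps at its 3′ end with Nsd2, a histone methyltransferase gene that also lay in the window, as did the microRNA gene Mir7024.

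Nelfcd encodes the NELF subunit that binds NELFA within the complex (chr2:174415804-174427505). Its start region was 593 and 9149 bp long for NELFB:HA, 747 and 783 bp with NELFE and 2822 and 529 bp with SPT5. The NELFE calls were nearly equal in length and shared their first base, while the calls of the other antibodies differed widely between their 2 libraries. The long call in the second NELFB:HA library ran from chr2:174407639 to 174416787, mostly upstream of the gene, with a fold of 2.77 and a rank of 8083. The short call in the first had a fold of 6.78 and a rank of 2639. Folds were 4.82 and 6.45 with NELFE and 3.06 and 4.16 with SPT5, with ranks of 2502, 2274, 5977 and 1818. All 6 calls shared 487 bp (chr2:174415660-174416146). The window also overlapped Ctsz, the gene of the lysosomal protease cathepsin Z, downstream.

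Nelfe encodes the NELF subunit with the RNA recognition motif, and was itself immunoprecipitated in both NELFE libraries (chr17:34850391-34856372). Its start region was 1631 and 1836 bp long for NELFB:HA, 2553 and 893 bp with NELFE and 2748 and 1005 bp with SPT5. The lengths of the 3 antibodies overlapped. Folds were 3.995 and 5.53 with NELFB:HA, 6.06 and 5.26 with NELFE and 2.56 and 3.25 with SPT5, and the ranks 3809, 1493, 2775, 1697, 7416 and 3495 in the same order. Only 186 bp separate Nelfe from Skiv2l, the gene of an RNA helicase of the cytoplasmic exosome pathway, and in 5 of the 6 libraries the region overlapped both genes. The exception was the first SPT5 library, whose region began 100 bp upstream of the Nelfe start. Signal at this start therefore cannot be given to Nelfe or Skiv2l alone. The complement gene Cfb and the microRNA gene Mir6972 also overlapped the window.

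Supt5 encodes SPT5, the large DSIF subunit and the target of the third antibody (chr7:28314891-28338804, minus strand). Its start region was the only one of the 6 that was shorter in both SPT5 libraries than in all 4 NELF libraries. It measured 3669 and 2329 bp with NELFB:HA, 3849 and 2721 bp with NELFE and 1646 and 1743 bp with SPT5. Among all genes with a strong start region in all 6 libraries, 4.8% showed this order. The added NELF length lay upstream of the start, over 2975, 1922, 3425 and 1824 bp in the 4 NELF libraries against 1042 and 1121 bp in both SPT5 libraries. Downstream, the regions reached 406 to 896 bp with no separation of the antibodies. Folds were 7.14 and 6.89 with NELFB:HA, 6.28 and 9.44 with NELFE and 5.64 and 4.58 with SPT5.

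The Supt5 start ranked highest of the 6 in the SPT5 lists. By pileup it ranked 126 and 159 in the SPT5 lists, 1580 and 416 in the NELFB:HA lists and 2071 and 1080 in the NELFE lists, and it was the first or second of the 6 members in every list. Counted over gene starts, it was in position 72 of the 12400 genes with a region at the start in the first SPT5 list and in position 119 of 9827 in the second. In the NELF lists its position was 1431 of 11807, 367 of 12326, 1845 of 10873 and 993 of 11080. Ranks in lists of different length show no change in binding, and tag length, fragment length and input differ between the SPT5 and NELF lists. Pileup is also a mean over the region, and the calls at this start were shorter with SPT5 than with NELF. The ranks are therefore not a trait separate from the lengths, and how far length moved them was not tested.

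The Supt5 window held a further strong site, at the start of Timm50, past the 3′ end of Supt5. Its fold was 6.57 and 5.38 with NELFB:HA, 8.42 and 9.89 with NELFE and 2.53 and 2.81 with SPT5. In both NELFE libraries its pileup, 67.4 and 70.5, was above that of the Supt5 start, 54.6 and 64.2. In the other 4 libraries it was below. The region of highest pileup in the Supt5 window was therefore the Timm50 start in both NELFE libraries and the Supt5 start elsewhere. In 34 of the 36 pairs of member and library the region of highest pileup was the member's own start, and these 2 were the exceptions. The long noncoding RNA gene Gm51445 overlaps the Timm50 site.

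Supt4a encodes SPT4, the small DSIF subunit (chr11:87737551-87743623, plus strand). It had the lowest folds of the 6 members in both SPT5 libraries and in both NELFE libraries. They were 4.02 and 2.97 with NELFB:HA, 4.09 and 4.43 with NELFE and 2.34 and 2.36 with SPT5. Its start region measured 1339 and 2925 bp with NELFB:HA, 996 and 1217 bp with NELFE and 1908 and 1972 bp with SPT5. Both SPT5 and both NELFB:HA regions were longer than both NELFE regions. The ranks were 4361, 5402, 3523, 4339, 4935 and 4566. A second site lay past the 3′ end, where the second NELFE library had a strong region at chr11:87747205-87749811 (fold 2.64). The window ends within this site. Over its whole length every other library had a weak region, with −log10 q of 1.14 and 1.36 in both NELFB:HA libraries, 0.96 in the first NELFE library and 0.63 and 1.03 in both SPT5 libraries. The gene Rnf43 overlapped the window upstream.

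**Figure D2:**
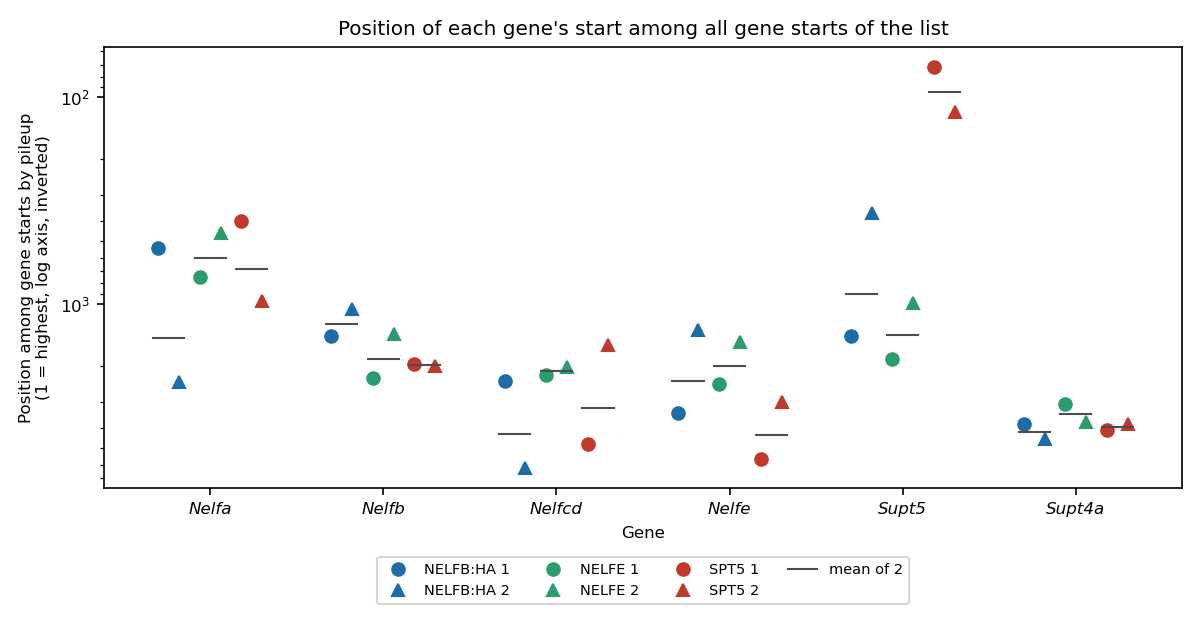
Position of each member's start among all gene starts of a list that held a region, ranked by pileup, on an inverted log axis. Points are single libraries and bars the mean of the 2 libraries of an antibody. Supt5 reaches positions 72 and 119 in the SPT5 lists, and Supt4a lies between 3067 and 4527 in every list.

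The order of the 6 was compared within lists. Averaged over the 6 lists, the start region lay in the top 0.368% of regions for Supt5, 0.388% for Nelfa, 0.816% for Nelfb, 1.24% for Nelfcd, 1.29% for Nelfe and 1.77% for Supt4a. Neighbours in this order changed places between libraries. Supt5 was above Nelfa in 3 of 6 libraries, Nelfa above Nelfb in 5, Nelfb above Nelfcd in 4, Nelfcd above Nelfe in 4 and Nelfe above Supt4a in 5. For Supt5 and Nelfa the change went in part with the antibody. Supt5 ranked above Nelfa in both SPT5 lists (126 and 159 against 502 and 1117). It ranked below Nelfa in both NELFE lists (2071 and 1080 against 833 and 479), and the NELFB:HA lists were split. No pair of neighbours kept the same order in all 6 libraries, while the ranges of Supt5 (0.0273% to 1.02%) and Supt4a (1.07% to 3.33%) did not overlap.

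As a group, the members' start regions had ordinary folds for genes with strong starts. Their median fold was 6.06 and 4.37 in both NELFB:HA libraries, 5.90 and 6.98 in both NELFE libraries and 3.26 and 3.80 in both SPT5 libraries. Over the 5023 genes with a strong start region in all 6 libraries the medians were 5.49, 4.22, 6.51, 6.79, 3.23 and 3.14. Their lengths were below those of the same genes in 5 of the 6 libraries: the members' medians were 1371, 2627, 1890, 1214, 2139 and 1857.5 bp and the genes' medians 2305, 2600, 1951, 2148, 3198 and 2543 bp. The exception was the second NELFB:HA library, which held the long calls at Nelfa and Nelfcd. By pileup rank, the members' medians were the top 0.616%, 0.468%, 1.25%, 0.745%, 0.788% and 1.51% in the same order of libraries. The genes' medians were 0.840%, 0.665%, 1.43%, 1.34%, 0.677% and 2.26%. The members thus ranked higher by the median except in the first SPT5 library, which was not tested.

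**Figure D3:**
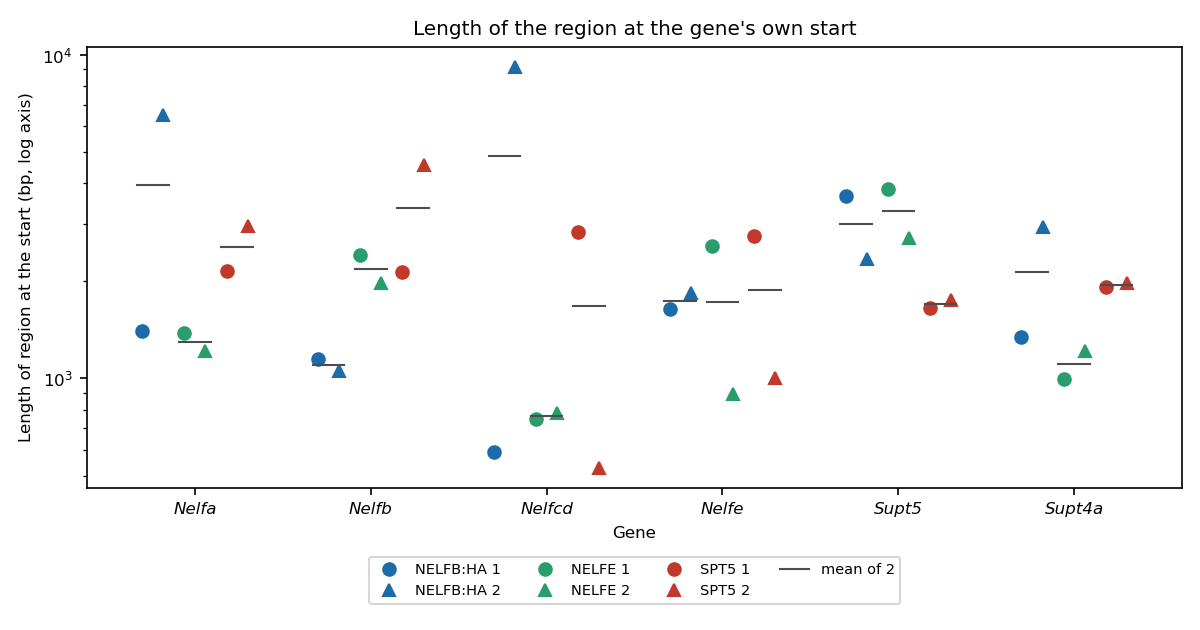
Length of the region at each member's own start, on a log axis, in the 6 libraries; bars give the mean of the 2 libraries of an antibody. The Supt5 regions are 1646 and 1743 bp in both SPT5 libraries and 2329 to 3849 bp in the NELF libraries, and the long calls at Nelfa and Nelfcd come from the second NELFB:HA library.

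None of the members had SPT5 regions longer than the NELF regions in every library. Both SPT5 lengths exceeded all 4 NELF lengths at 0 of 6 member starts, against 25.9% of 5023 genes. For the region of highest pileup in the window the count was also 0 of 6, against 25.7% of 7106 genes, and over all merged regions with a peak in the 6 lists the share was 17.7%. With 6 genes these shares were not tested against each other. The count depended on single libraries. It was 2 (Nelfa and Supt4a) without the second NELFB:HA library, 1 (Nelfb) without the first NELFE or without the first SPT5 library, and 1 (Nelfe) without the second SPT5 library. It remained 0 without the first NELFB:HA or the second NELFE library.

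Start lengths were also compared between pairs of antibodies, counting the members whose lengths did not overlap. SPT5 regions were longer than NELFE regions at Nelfa and Supt4a, 2 of 6 against 41% of genes, and shorter at Supt5 alone against 8.74%. They were longer than NELFB:HA regions at Nelfb alone against 33% of genes, and shorter at Supt5 alone against 13.4%. NELFB:HA regions were longer than NELFE regions at Nelfa and Supt4a, against 25.9% of genes, and shorter at Nelfb alone against 10.6%.

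The size of the differences was set against the spread between libraries. At the start, the mean SPT5 length at Supt5 was 1694.5 ± 68.6 bp and the mean NELFE length 3285 ± 798 bp (SD, n = 2 each), a difference of −1590.5 bp against a pooled SD of 566 bp. The exact two-sided permutation p was 0.333, the smallest that 2 libraries against 2 can give. Measured on the region of highest pileup in the window, which in both NELFE libraries is the Timm50 start, the same comparison gave 702.5 bp. At Nelfb the mean was 1097.5 ± 64.3 bp with NELFB:HA and 2180.5 ± 306 bp with NELFE (SD, n = 2 each), a difference of −1083 bp beyond the pooled SD of 221 bp (p = 0.333 in the exact permutation test). At Supt4a SPT5 exceeded NELFE by 833.5 bp, against a pooled SD of 115 bp, and at Nelfa by 1250.5 bp, against 411 bp (exact permutation p of 0.333 for each). At Nelfcd and Nelfe no difference between SPT5 and either NELF antibody passed the pooled SD. Over the 5023 genes the smallest adjusted exact permutation p of a member was 0.671.

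The model over all genes called no member. With limma on log2 length of the start region and Benjamini-Hochberg adjustment over 5023 genes, 5.77% of genes differed between SPT5 and NELFE, 3.76% between SPT5 and NELFB:HA and 0% between NELFB:HA and NELFE, where 297 genes had an unadjusted p under 0.05. None of the 6 members was called in any of the 3 comparisons. The smallest adjusted p of a member was 0.188, for Nelfb, whose SPT5 region exceeded its NELFB:HA region by a log2 difference of 1.51 (SE 0.60). Supt5 had log2 differences of −0.93 (SE 0.58, limma adjusted p = 0.404) against NELFE and −0.79 (SE 0.58, limma adjusted p = 0.507) against NELFB:HA. The median log2 difference over all genes was 0.50 with SPT5 minus NELFE and 0.28 with SPT5 minus NELFB:HA, the opposite sign to Supt5. In both comparisons with SPT5 the calls at other genes show that the model can call at this sample size. Between NELFB:HA and NELFE no gene was called, so nothing shows that it can call there. A p that misses the threshold does not show that the lengths were equal.

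Away from the starts, the gene bodies (1 kb past the start to the annotated end) lay partly under regions. Some of these were weak, and others were start regions that reached past 1 kb into the gene. No strong region reached the body of Supt5. There, 59.9% and 38.7% of the body lay under a region of any strength in both SPT5 libraries, 19.0% and 32.5% in both NELFB:HA libraries and 12.5% and 8.24% in both NELFE libraries. At Nelfa the values were 42.3% and 33.1%, 8.71% and 33.0%, and 10.7% and 8.38% in that order. At both genes the SPT5 values were above all 4 NELF values, at Nelfa by little over the second NELFB:HA library, and 12.6% of 13898 genes with a body of at least 3000 bp showed this order.

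The shorter genes were less uniform. The body of Supt4a was covered over 48.4% and 25.6% in both SPT5 libraries, 26.6% and 33.1% in both NELFB:HA libraries and 0% in both NELFE libraries. At Nelfe the SPT5 libraries gave 33.1% and 26.4%, the NELFB:HA libraries 0% and 7.23% and the NELFE libraries 22.2% and 16.3%, so that SPT5 was again above all 4, which makes 3 of the 6 members. The value of the first SPT5 library at Nelfe, and that of the first NELFE library, came wholly from strong regions. Nelfcd had 24.0% and 1.92% with SPT5, 4.45% and 14.2% with NELFB:HA and 0% in both NELFE libraries. Nelfb had 8.11% and 24.7% with SPT5, 24.5% and 0% with NELFB:HA and 15.7% and 16.2% with NELFE. At Nelfb the value of the second SPT5 library came wholly from its strong start region. At Nelfcd and Nelfb the antibodies overlapped.

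**Figure D4:**
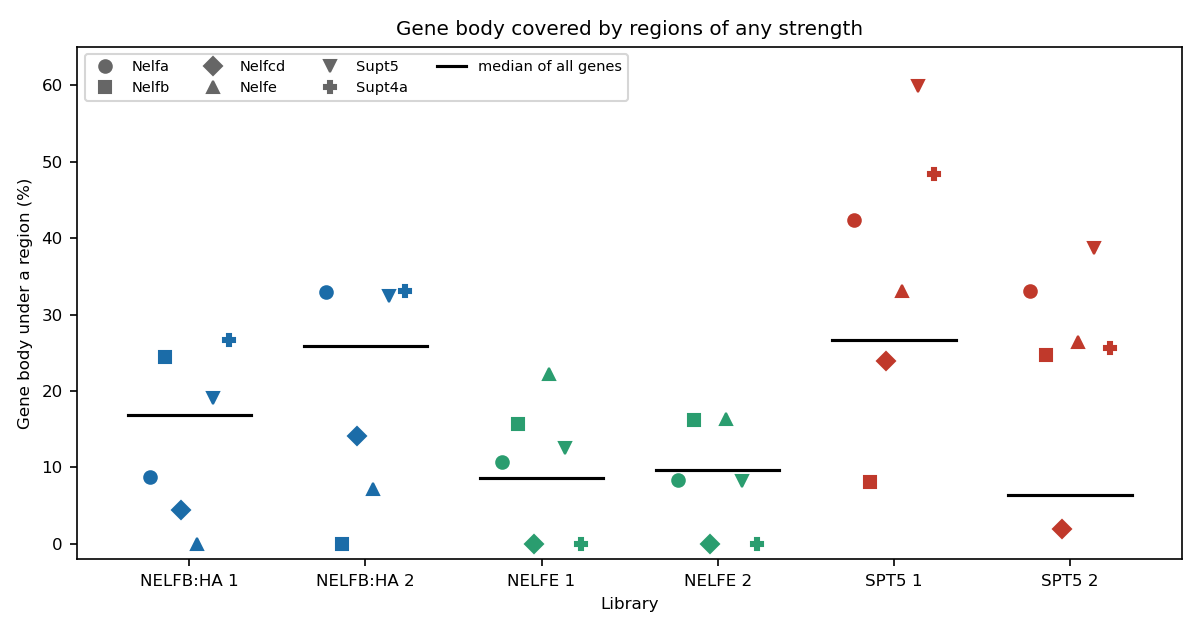
Percent of each member's body (1 kb past the start to the annotated end) under a region of any strength, per library, with the median of all genes with a body of at least 3000 bp as a bar. In the second SPT5 library 5 of the 6 members lie above the bar at 6.34%, and Nelfcd lies below it.

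The members' median body coverage was 37.7% and 26.0% in both SPT5 libraries, 13.9% and 23.3% in both NELFB:HA libraries and 11.6% and 8.31% in both NELFE libraries. The medians over 13898 genes were 26.7%, 6.34%, 16.9%, 25.8%, 8.65% and 9.72% in the same order. The gene median differed more between the 2 SPT5 libraries than the members' median did, in lists of 462153 and 137102 regions. Whether the number of regions in a list moves these values was not tested. Over the whole windows, SPT5 covered more than NELFE at 6 of 6 members, by a median of 4666 bp, and the difference passed the pooled SD at 5 of 6 (all but Nelfb). Of 20815 genes with any coverage within the gene and 4 kb either side, 83.7% had more with SPT5 and 35.2% by more than the pooled SD. It was 13253 bp at Nelfa and 9115 bp at Supt5. The exact permutation p ranged from 0.333 to 1, and every adjusted p over 20815 genes was 1. SPT5 covered more than NELFB:HA at 6 of 6 members by a median of 1451 bp, beyond the pooled SD at Supt5 and Supt4a (all genes 38.6% and 17.2%). NELFB:HA covered more than NELFE at 6 of 6 by a median of 3215 bp, beyond it at Nelfcd, Supt5 and Supt4a (all genes 89.6% and 66.3%). Limited to strong regions, the median differences were 673, −535 and 860 bp in the same order, so the sign of the difference from NELFB:HA turned.

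By the median over members, the part of the window that held the start was covered more than the rest in all 6 libraries. With each window cut into 10 equal bins from the 5′ side, the bin that held the start was covered over a median of 61.8% and 84.4% in both NELFB:HA libraries, 56.3% and 51.4% in both NELFE libraries and 54.9% and 57.4% in both SPT5 libraries. The other bins were covered over medians of 13.9%, 29.3%, 13.8%, 8.13%, 36.2% and 26.0%. The start bin was often not the best covered of the 10. It was so at 2 and 3 of the 6 members with NELFB:HA, 3 and 3 with NELFE and 2 and 0 with SPT5. The contrast between the start and the rest was least in both SPT5 libraries. At Supt5 in the first SPT5 library the start bin, at 48.4%, was covered less than the rest, at 56.4%. The start bin of Nelfe in the same library was covered over 13.9% against 26.5% for the rest. There the start region ran on into the next bin, covered over 100%, so the rest includes most of the start region.

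Other genes of transcription elongation, from a list of 32, were examined in the same way. Of these, 29 had a strong region in all 6 libraries. Ell and Polr2e had one in 5 libraries and Mllt3, a subunit of the super elongation complex, in 0. Of the 29, both SPT5 lengths exceeded all 4 NELF lengths at 10, against 25.7% of 7106 genes and 0 of 6 members. Polr2e, which is not among the 29, also showed this order, with 12511 and 8460 bp in both SPT5 libraries. These shares were not tested against each other. The median of the mean rank was the top 0.825% for the list and the top 1.03% for the members. In each complex, the highest and lowest by mean rank were Hexim1 (0.239%), the inhibitor of P-TEFb, and Mllt3 (11.7%); Paf1 (0.477%) and Rtf1 (2.43%) of the PAF1 complex; and Iws1 (0.485%) and Supt6 (2.23%) among histone chaperones and their partners. Among the RNA polymerase II subunits they were Polr2a (0.0651%) and Polr2e (2.63%), and in Integrator, which cleaves nascent RNA, Ints6 (0.473%) and Ints1 (2.96%).

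The genes whose 6 ranks were most like each member's were found among 16598 genes by the Euclidean distance of the log2 rank percentiles over the 6 libraries, for the region of highest pileup within the gene and 4 kb either side. For Supt5, where this was the Timm50 start in both NELFE libraries, they were Mrps18a (distance 1.09) and the pair Cd68 and Mpdu1 (1.09 each). For Nelfa they were Orc2 (1.30), Kat14 and Pet117 (1.47 each). Nelfb was nearest to Stat3 (0.652), Rfx1 (0.679) and Hspa2 (0.687), and Nelfcd to Gpatch2 and Spata17 (0.814 each) and Paqr3 (0.891). Nelfe was nearest to Spg20 (0.654), Emc10 and Fam71e1 (0.838 each). Supt4a had Rnf43 at distance 0, since the search took the same regions for both neighbours. The nearest genes of Supt5 and Nelfa were farther away than those of the other members.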

How the data were processed

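ChIP-seq regions of 6 control libraries were used. Per the submitters' processing notes the tools were Bowtie2, deepTools and MACS2 and the build mm10. Per the file headers, the authors called regions with MACS 2.1.1.20160309 on each library against an input, without pooling, in broad mode with p cutoffs of 0.01 and 0.1, with at most 1 tag kept per position. The deposited pileup signal is the mean coverage of a region after scaling the larger of ChIP and input to the smaller, and is not comparable between libraries. The deposited fold is the ratio of that coverage to local input. The deposited −log10 p and −log10 q are means over the region. Per the file headers q was not calculated, but the column holds values, which were taken as deposited. The headers name 5 inputs.

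Groups came from the sample titles. A region counted as in a window at 1 bp of overlap and as at the start within 500 bp. The region of highest pileup in the window was taken as the member's strongest; the region at the gene's own start was added after the Timm50 site was seen. For Nelfcd and Nelfe, which have no annotated strand in the tables used here, the plus strand was assumed. Lengths and covered lengths were tested with two-sided exact permutation tests, and log2 lengths also with limma 3.58.1 in R 4.3.3, chosen after seeing the data, with Benjamini-Hochberg adjustment over all genes rather than over the member tests as first planned. The scripts were tested on simulated data. The 6 members, all genes overlapping their windows, the 3 nearest genes per member and the highest and lowest elongation gene per complex were named, except for items of the Supt4a search that are not reported here. The members and lists were chosen with earlier results of these data known. Alternatives were other q-values, other choices and joins of regions, libraries left out and a replicate block. Peak lists give no read counts per base, so counting intervals are not given.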

Additional observations from a re-analysis of the deposited data

How the results depend on the processing

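Over 45 results, 268 alternatives were computed: 30 changed a sign, 45 were counted as moved and 193 as neither. For a difference given without a test, moved means beyond its error. Counts of members have no error, and some changed counts were also counted as moved. At a q-value of 1e-05 or less, 3 members kept a strong region in all 6 libraries. The Supt5 length difference between SPT5 and NELFE became −194 bp for the region of highest −log10 p and −1590.5 bp at the gene's own start, where that between NELFB:HA and NELFE became −286 bp and its median over members 518 bp. At the gene's own start these changes come from the Timm50 site no longer being taken in both NELFE libraries. For the highest −log10 p it was still taken in the first NELFE library (1056 bp), and only the second moved to the Supt5 start (2721 bp). On the log2 scale of limma, Nelfe SPT5 minus NELFB:HA was −0.058. With only q-values of 0.01 or less, the median covered lengths were 673 bp for SPT5 minus NELFE, −535 bp for SPT5 minus NELFB:HA and 860 bp for NELFB:HA minus NELFE. SPT5 minus NELFB:HA then became −1404 bp at Nelfa, −2015 bp at Nelfcd, −878 bp at Supt5 and −192 bp at Supt4a, and NELFB:HA minus NELFE −1083 bp at Nelfb. The count of members with longer SPT5 regions was 1 with regions within 1000 bp joined, 2 by covered length, and 0 to 4 with libraries or replicate numbers left out (1 without replicate 1 and 4 without replicate 2). The cause of the other changes was not tested.

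Signs often changed when a replicate number was left out, which gives values with no test. For the length of the strongest region, SPT5 minus NELFE ranged from −265 to 2595 bp at Nelfb and from −254 to 2075 bp at Nelfcd. SPT5 minus NELFB:HA ranged from −3551 to 743 bp at Nelfa, −8620 to 2229 bp at Nelfcd, −831 to 1117 bp at Nelfe, −953 to 569 bp at Supt4a and −892 to 866 bp for the median. NELFB:HA minus NELFE ranged from −154 to 8366 bp at Nelfcd, −922 to 943 bp at Nelfe and −67 to 1554.5 bp for the median. For covered length, SPT5 minus NELFE ranged from −1433 to 1949 bp at Nelfb. SPT5 minus NELFB:HA ranged from −3328 to 16408 bp at Nelfa, −5638 to 6795 bp at Nelfcd, −1573 to 2157 bp at Nelfe and −641.5 to 4567 bp for the median. NELFB:HA minus NELFE ranged from −2905 to 16331 bp at Nelfa, −1723 to 1835 bp at Nelfb, −728 to 8548 bp at Nelfcd, −922 to 2854 bp at Nelfe and 553.5 to 4525.5 bp for the median.

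Same-numbered libraries did not deviate together: the correlations of their length deviations over 5023 genes were −0.0113, −0.00261 and −0.00637. With the replicate block, 0 members had SPT5 regions longer than the same-numbered NELF regions in both pairs, and the median length difference between SPT5 and NELFE stayed 872 bp by construction, with an SD of same-numbered differences of 424 bp. No exact test of 2 libraries against 2 can fall below 0.333, so an unchanged outcome shows no stability.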
